A study of Rattus norvegicus with 2 samples.

Results

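Neurotrophin and GDNF signalling was followed through 10 genes, taken by symbol from a table of 21224 gene rows: the ligands Bdnf and Ntf3, the receptors Ntrk2, Ntrk3 and Ngfr, the GDNF family receptors Gfra1, Gfra2 and Ret, and the secreted, activity-regulated proteins Vgf and Nrn1. All 10 were found, each on 1 row. Messenger RNA had been sequenced from E18 rat cortical neurons that received a small interfering RNA against Ythdf3 (siYthdf3) or a negative control (siNC). Ythdf3 encodes a cytoplasmic protein that reads the m6A modification of transcripts. With a single library per group (n = 1), differences between the conditions could not be tested, and p-values are absent for that reason. The study's title links Ythdf3 to hypoxic-ischemic injury, but no label names a hypoxic sample, and sequence of the small interfering RNAs, dose and time of treatment are not given in the labels.

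Neurotrophins are secreted proteins that keep neurons alive and shape their dendrites and synapses. BDNF signals mainly through the receptor tyrosine kinase TrkB (Ntrk2) and neurotrophin-3 mainly through TrkC (Ntrk3), while p75 (Ngfr) binds all neurotrophins and their precursors. GDNF and its relatives bind a membrane-anchored GFRalpha co-receptor, which then engages the kinase RET. Vgf and Nrn1 encode secreted neuronal products induced by neurotrophins or by activity.

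Levels are FPKM values, read numbers corrected for the length of the gene and the size of the library, as deposited by the authors. FPKM times length came in whole steps and returned 22586543 reads in siYthdf3 and 15392218 in siNC. Ratios are siYthdf3 over siNC with an exact 95% interval from those reads. Such an interval compares 2 libraries and covers counting error only. The log2 ratio was taken after adding 0.5 FPKM, and the 13172 gene rows that averaged 1 FPKM or more across the 2 libraries were compared as a body. Of the 10 members, 6 reached that level, while Bdnf, Ngfr, Gfra2 and Ret did not and are described by their reads. Ythdf3 itself measured 6.93 FPKM in siYthdf3, against 9.38 FPKM in siNC, with the ratio at 0.739 (interval 0.675 to 0.809). The library labelled siYthdf3 thus kept most of the message of the targeted gene.

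In these libraries no member of the family stood 1.5-fold or more apart on the log2 scale used, and Vgf, the lowest, was the one whose difference exceeded counting error. By plain FPKM ratio Ret and Ngfr were past 1.5-fold, on 30 and 34 reads in siYthdf3 and 11 and 37 in siNC, with intervals that include 1. None of the 6 members that passed the filter was at least 2-fold higher, where 0.706% of all genes were, and none was at least 2-fold lower, where 0.896% were. At 1.5-fold the members again counted 0 higher, against 2.41% of all genes, and 0 lower, against 3.95%. Beside shares this small, a count of 0 among 6 genes does not set them apart. By the counting interval, 0 of the 6 lay above 1, against 20% of all genes, and 1 lay below 1, against 22.2%, which is Vgf. Among the 4 members under 1 FPKM no interval lay above or below 1, where 3.37% and 2.51% of the 8052 low rows with reads did. The median log2 ratio of the 6 members was -0.00, beside -0.01 over all genes, whose quartiles were -0.17 and 0.14.

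**Figure D1:**
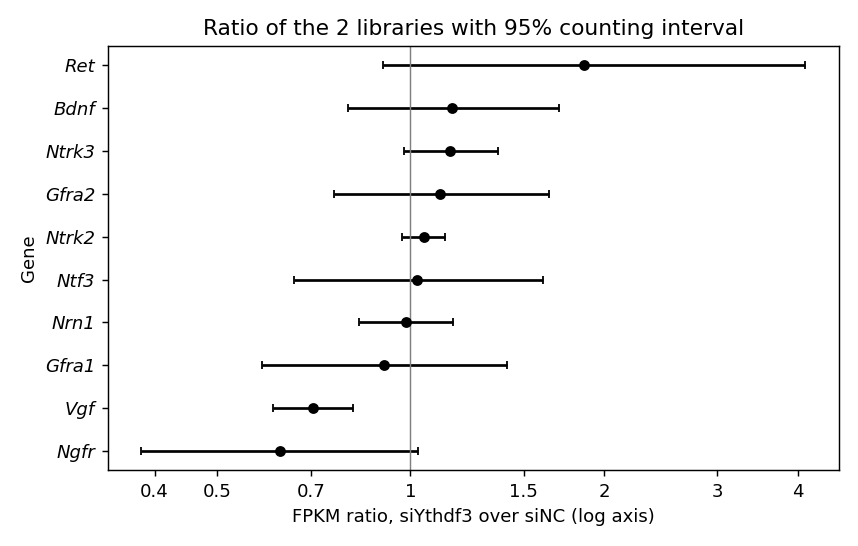
Ratio of FPKM, siYthdf3 over siNC, on a log axis for the 10 members; bars are exact 95% counting intervals and the vertical line marks a ratio of 1. The interval of Vgf, 0.611 to 0.813, lies below 1, and those of the other 9 members include 1.

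The cells were a mixture in both libraries, which matters for genes that neurons and glia use differently. Of 10 neuronal markers, 7 intervals lay above 1 and 1 below, and their summed level was 1206 FPKM in siYthdf3 and 1051 FPKM in siNC. Over all tested genes, 20% of intervals lay above 1 and 22.2% below. Deeply read markers pass at small differences, as Stmn2 did at a ratio of 1.06 on 11880 reads in siYthdf3. Of 11 markers of radial glia, progenitors and cycling cells, 9 intervals lay below 1 and 0 above, with sums of 1454 FPKM in siYthdf3 and 2199 FPKM in siNC. The 9 astrocyte markers were split, with 3 intervals on each side of 1, and summed to 257 FPKM in siYthdf3 and 188 FPKM in siNC. Without Gfap, left out after seeing its value, they summed to 116 FPKM in siYthdf3 and 120 FPKM in siNC. The 7 oligodendrocyte lineage markers summed to 18.7 FPKM in siYthdf3 and 31.1 FPKM in siNC. In bulk RNA, fewer cells of a type and less RNA per cell cannot be told apart, and the part of these shifts in the values below was not tested.

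Bdnf (ENSRNOG00000047466, chromosome 3, 96165042 to 96215615, plus strand), the ligand of TrkB, was sparse. It measured 0.584 FPKM in siYthdf3 (80 reads), against 0.503 FPKM in siNC (47 reads). The ratio was 1.16 with an interval of 0.799 to 1.70, and no difference was detectable at this depth. Its level was above that of 32.4% of gene rows in siYthdf3 and 31.1% in siNC. RefSeq lists 11 transcripts for Bdnf, driven by several promoters, and the gene-level value sums over them.

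Ntf3 (ENSRNOG00000019716, chromosome 4, 158914957 to 158984596, minus strand), which encodes neurotrophin-3, stood higher than Bdnf per length. It measured 1.28 FPKM in siYthdf3 (54 reads), against 1.26 FPKM in siNC (36 reads), with a ratio of 1.02 (interval 0.658 to 1.60). The level of Bdnf was 0.455 times that of Ntf3 in siYthdf3 (interval 0.318 to 0.654) and 0.401 times in siNC (interval 0.254 to 0.637). The order of the 2 ligands was thus the same in both libraries. It rests on the row lengths, 6068 bases for Bdnf and 1862 for Ntf3, since by reads alone Bdnf was the higher.

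Ntrk2 (ENSRNOG00000018839, chromosome 17, 5559043 to 5869136, minus strand), the TrkB receptor gene, was the most deeply read member. It measured 7.68 FPKM in siYthdf3 (1692 reads), against 7.32 FPKM in siNC (1100 reads). The ratio of 1.05 had the narrowest interval of the 10, 0.971 to 1.13, which bounds the difference between these libraries as far as counting goes. TrkB is made as a full-length kinase in neurons and as a truncated form without the kinase in astrocytes. RefSeq lists 14 transcripts for the gene, and 1 value per gene cannot separate these forms. Ntrk2 was therefore measured as their sum, in a library where the astrocyte markers Gfap and Gja1 stood apart in opposite directions, Gfap at a log2 ratio of 1.04 and Gja1 at -0.68.

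Ntrk3 (ENSRNOG00000018674, chromosome 1, 132132849 to 132503286, minus strand), the TrkC receptor gene, measured 4.76 FPKM in siYthdf3 (381 reads), against 4.12 FPKM in siNC (225 reads). Its ratio was 1.15 (interval 0.976 to 1.37), and 80.3% of tested genes had a lower log2 ratio. Ntrk2 exceeded Ntrk3 per length by 1.61 times in siYthdf3 (interval 1.44 to 1.81) and 1.78 times in siNC (interval 1.54 to 2.06). These intervals overlap, and a shift in the balance of the 2 Trk receptors was not tested.

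Ngfr (ENSRNOG00000005392, chromosome 10, 80515299 to 80533518, minus strand), the p75 receptor, had the lowest ratio of the 10 on few reads. It measured 0.458 FPKM in siYthdf3 (34 reads), against 0.732 FPKM in siNC (37 reads), a ratio of 0.626. The interval of 0.381 to 1.03 includes 1. Adding 0.5 FPKM draws so low a gene towards 0, to a log2 ratio of -0.36. Ntrk2 exceeded Ngfr per length by 16.7 times in siYthdf3 (interval 11.9 to 24.3) and 10.003 times in siNC (interval 7.21 to 14.3). These intervals overlap, but overlap does not show that the 2 values are alike, and the shift was not tested. Ngfr also marks Schwann cells and other glia. None of the 5 Schwann and peripheral glia markers found reached a mean of 1 FPKM, and their sums were 1.02 FPKM in siYthdf3 and 1.98 FPKM in siNC.

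**Figure D2:**
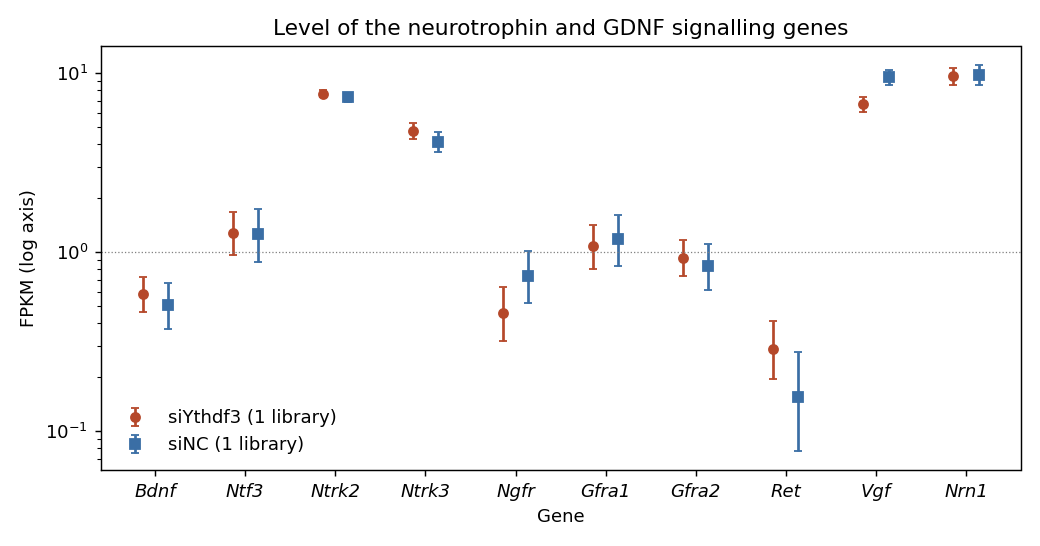
FPKM of each member on a log axis in the siYthdf3 library (circles) and the siNC library (squares); bars are exact 95% Poisson intervals of the reads and the dotted line marks 1 FPKM. Nrn1, Ntrk2, Vgf and Ntrk3 lie between 4.12 and 9.74 FPKM, the others near or below 1 FPKM, and the bars of the libraries are apart for Vgf.

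The GDNF receptor genes were all low. Gfra1 (ENSRNOG00000017438, chromosome 1, 257321742 to 257551473, minus strand), the co-receptor that binds GDNF, measured 1.07 FPKM in siYthdf3 (52 reads), against 1.18 FPKM in siNC (39 reads). The ratio was 0.909 (interval 0.588 to 1.41). Gfra2 (ENSRNOG00000014010, chromosome 15, 45941828 to 46033714, plus strand), the co-receptor preferred by neurturin, measured 0.927 FPKM in siYthdf3 (75 reads), against 0.835 FPKM in siNC (46 reads). Its ratio was 1.11 (interval 0.760 to 1.64). Within each library the levels of the 2 co-receptors could not be told apart, with Gfra1 over Gfra2 at 1.16 in siYthdf3 (interval 0.796 to 1.67) and 1.41 in siNC (interval 0.899 to 2.22).

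Ret (ENSRNOG00000014751, chromosome 4, 151326431 to 151368176, minus strand), the kinase through which the co-receptors signal, was the least abundant member in both libraries. It measured 0.288 FPKM in siYthdf3 (30 reads), against 0.155 FPKM in siNC (11 reads). The ratio of 1.86 was the largest of the 10, but its interval ran from 0.905 to 4.11. Gfra1 exceeded Ret per length by 3.73 times in siYthdf3 (interval 2.34 to 6.06) and 7.63 times in siNC (interval 3.83 to 16.5). Both co-receptors stood above the kinase per length in both libraries, since the intervals of Gfra2 over Ret, 2.09 to 5.10 in siYthdf3 and 2.75 to 11.5 in siNC, also lay above 1. The cell adhesion molecule NCAM is known as another signalling partner of the GFRalpha proteins, and its gene Ncam1 measured 126 FPKM in siYthdf3, against 116 FPKM in siNC.

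Vgf (ENSRNOG00000001416, chromosome 12, 19637320 to 19640341, minus strand) was the 1 member whose interval lay below 1. It encodes a granin-like precursor of secreted neuropeptides and is a classical gene induced by neurotrophins. It measured 6.67 FPKM in siYthdf3 (397 reads), against 9.46 FPKM in siNC (384 reads). The ratio was 0.705 (interval 0.611 to 0.813) and the log2 ratio -0.48. Ngfr had a lower ratio, 0.626, on 34 reads in siYthdf3 and 37 in siNC, and its interval of 0.381 to 1.03 includes the 0.705 of Vgf. Only 5.88% of the 13172 tested genes had a lower log2 ratio than Vgf, though 22.2% had an interval below 1. Of the 6 members that passed the filter 16.7% did, which is Vgf alone, so this count does not set the members apart. Ythdf3 itself was at -0.41 on the log2 scale.

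The order of the members by level changed at Vgf. Its level per length was 0.869 times that of Ntrk2 in siYthdf3 (interval 0.777 to 0.970) and 1.29 times in siNC (interval 1.15 to 1.45). These ratios are formed within a library, so the depth and scaling of the libraries do not enter them. They rest on the length given for each row, 2636 bases for Vgf and 9760 for Ntrk2, and the intervals do not cover error in those lengths. By reads alone Ntrk2 exceeded Vgf in both libraries, so where the order crosses depends on the lengths. Against Nrn1 the level of Vgf was 0.697 times in siYthdf3 (interval 0.602 to 0.807) and 0.972 times in siNC (interval 0.825 to 1.15). From the highest to the lowest, the order was Nrn1, Ntrk2, Vgf, Ntrk3, Ntf3, Gfra1, Gfra2, Bdnf, Ngfr, Ret in siYthdf3, and Nrn1, Vgf, Ntrk2, Ntrk3, Ntf3, Gfra1, Gfra2, Ngfr, Bdnf, Ret in siNC. Of the 9 pairs of neighbours, 4 in siYthdf3 and 5 in siNC did not differ beyond their counting intervals. The swap of Bdnf and Ngfr was of that kind in both libraries.

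The position of Vgf limits this value. In the deposited table its whole span lies inside that of Ap1s1 (chromosome 12, 19625332 to 19756713), a clathrin adaptor gene on the opposite strand. The table gives no exon positions. Ap1s1 measured 17.2 FPKM in siYthdf3, against 20.7 FPKM in siNC, with the ratio at 0.835 (interval 0.761 to 0.916), so both rows were lower in siYthdf3. The sources used here do not say whether counting used strand. Without it, reads from any stretch where exons of both genes overlap could not be told apart. Whether their exons overlap is not known from the spans. The other 9 members overlap no other row of the table.

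**Figure D3:**
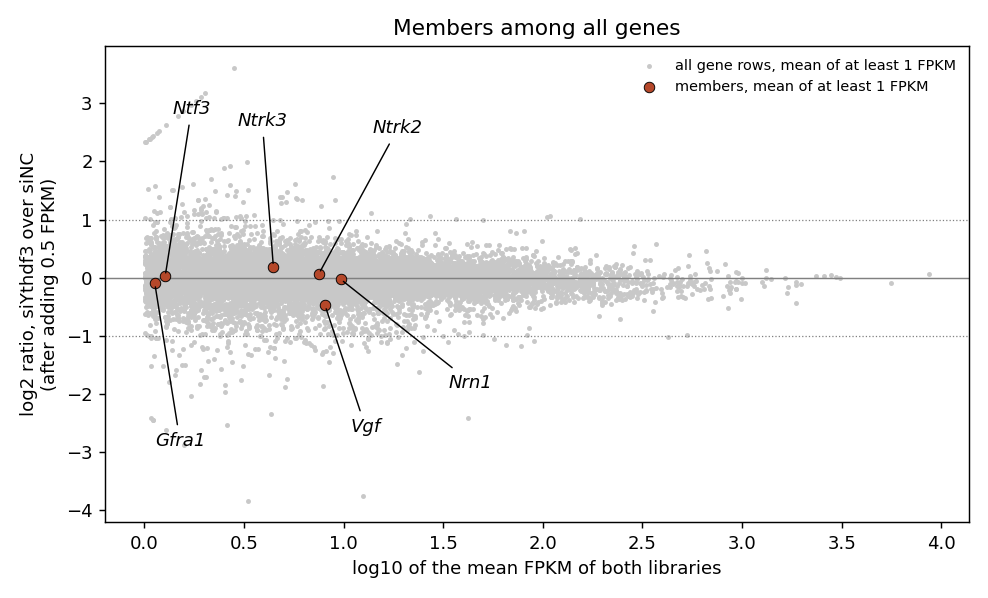
Log2 ratio of siYthdf3 over siNC, after adding 0.5 FPKM, against log10 of the mean FPKM of both libraries, for the 13172 gene rows averaging 1 FPKM or more (grey) and the 6 members among them (red); dotted lines mark 2-fold. Vgf lies at -0.48 and the other 5 lie between -0.10 and 0.19, all inside the dotted lines.

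Vgf and Bdnf are both known as targets of CREB, the factor that binds cyclic AMP response elements, and their promoter windows are shown to set the member with an interval below 1 beside a ligand whose interval includes 1. Windows run from 250 bases before to 50 after a gene start and come from RefSeq on GRCr8, a build that may differ from that of the deposited table. Of the 10 members, 5 matched, with 12 windows in all. The full element TGACGTCA and its shorter form TGACGT, which the full element contains, were searched on both strands. The Vgf window (chr12:25276971-25277270, minus strand) holds the full element, in capitals, 90 bases before the gene start. Of the 6 Bdnf windows 1 (chr3:116637608-116637907, plus strand) holds the shorter form, read on the opposite strand and in capitals, 36 bases before its start.
Vgf: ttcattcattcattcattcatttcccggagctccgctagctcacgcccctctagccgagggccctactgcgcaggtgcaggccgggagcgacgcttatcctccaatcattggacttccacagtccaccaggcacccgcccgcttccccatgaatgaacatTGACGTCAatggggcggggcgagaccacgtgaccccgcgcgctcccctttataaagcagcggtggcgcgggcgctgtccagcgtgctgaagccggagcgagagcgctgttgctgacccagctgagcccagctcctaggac
Bdnf: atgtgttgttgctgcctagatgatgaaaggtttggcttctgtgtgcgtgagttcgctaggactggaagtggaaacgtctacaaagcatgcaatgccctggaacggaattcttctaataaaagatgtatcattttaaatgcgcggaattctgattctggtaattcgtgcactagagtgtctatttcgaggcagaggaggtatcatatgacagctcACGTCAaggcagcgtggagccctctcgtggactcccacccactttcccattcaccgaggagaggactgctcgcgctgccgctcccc
Of all 33469 windows, 1.83% hold the full element and 7.94% the shorter form, counting the full ones too. The windows of Ntf3, Gfra1 and Ret hold neither. A match of letters is a description, and nothing about CREB binding was measured.

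Nrn1 (ENSRNOG00000050767, chromosome 17, 28129977 to 28138896, plus strand) encodes neuritin, a membrane-anchored and secreted protein that promotes neurite growth and synapse stability. It had the highest FPKM of the members in both libraries, though in siNC its lead over Vgf was within counting error. By reads alone Ntrk2 was the higher. Nrn1 measured 9.57 FPKM in siYthdf3 (346 reads), against 9.74 FPKM in siNC (240 reads). Its ratio was 0.982 (interval 0.831 to 1.16). The intervals of Vgf over Nrn1 given above, 0.602 to 0.807 in siYthdf3 and 0.825 to 1.15 in siNC, do not overlap. They use the same Vgf reads as its ratio, so this is no separate result. They cover counting error only, and the limit from Ap1s1 applies here too.

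The other genes of the pathway were taken from a list of 95 entries in 5 roles, of which 92 were in the table and 78 had a mean of at least 1 FPKM. Their median log2 ratio was 0.03. Of the 78, 3 were at least 1.5-fold higher and 2 at least 1.5-fold lower, and none was 2-fold apart on that scale, though by plain FPKM ratio Fosb was, at 2.24. Intervals lay above 1 for 27 and below 1 for 18. These are 34.6% and 23.1% of the 78, where all genes had 20% and 22.2%. The same shares of all genes apply to the counts by role below. The 78 and the 18 include the row of Pspn, which is not read as a level of persephin, as given below. Intervals narrow with reads, and Ncam1, with 24692 reads in siYthdf3, had one above 1 at a ratio of 1.09. Such shares thus depend on depth, which was not matched between the 78 and all genes. The list was not tested.

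**Figure D4:**
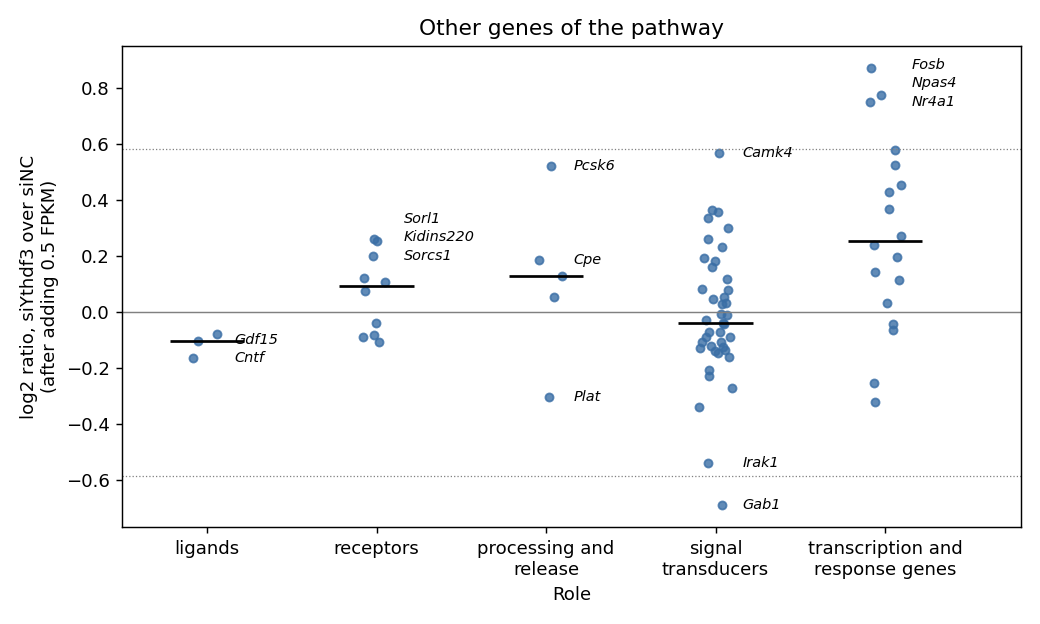
Log2 ratio of siYthdf3 over siNC, after adding 0.5 FPKM, of 77 of the 78 other pathway genes that averaged 1 FPKM or more, by role; bars are medians and dotted lines mark 1.5-fold. Gab1 lies below the lower line, and Fosb, Npas4 and Nr4a1 above the upper. The ligands plotted include the row of Pspn, which is not read as a level of that gene.

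Of the other ligands, Cntf, a cytokine of glia, was at -0.16 and the stress-induced Gdf15, which partly overlaps Lrrc25 on the other strand, at -0.10 on the log2 scale, with intervals that include 1.

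The GDNF family ligands were near the limit of detection. Gdnf had 10 reads in siYthdf3 and 7 in siNC, Artn had 6 in siYthdf3 and 4 in siNC, and Nrtn had 0 in siYthdf3 and 3 in siNC. The neurotrophin gene Ntf4 had 1 read in each library. The row of Pspn measured 81.2 FPKM in siYthdf3, against 85.7 FPKM in siNC, but it spans all of Gtf2f1, a transcription factor subunit on the same strand, and its 10556 reads in siYthdf3 and 7591 in siNC nearly match those of Gtf2f1, 10367 in siYthdf3 and 7503 in siNC. It is therefore not read as a level of persephin. Of the other co-receptors, Gfra3 had 1 read in siYthdf3 and 2 in siNC, and Gfra4 had 4 in siYthdf3 and 2 in siNC.

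Among 10 other receptors and receptor partners that passed the filter, 4 intervals lay above 1 and 1 below, with a median log2 ratio of 0.09. The sorting receptor Sorl1, which carries TrkB within neurons, measured 9.50 FPKM in siYthdf3, against 7.83 FPKM in siNC, a log2 ratio of 0.26. Kidins220, a scaffold bound to Trk receptors and p75, measured 125 FPKM in siYthdf3, against 105 FPKM in siNC, a log2 ratio of 0.25. Sorcs1, a sortilin relative, was at 0.20. Sort1, the sortilin that binds precursor neurotrophins together with p75, was the one below 1, at 17.2 FPKM in siYthdf3, against 18.5 FPKM in siNC.

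Of 5 processing and release genes that passed, 2 intervals lay above 1 and 1 below, with a median of 0.13. The proprotein convertase Pcsk6 measured 3.58 FPKM in siYthdf3, against 2.34 FPKM in siNC, a log2 ratio of 0.52. Cpe, which sorts precursors into the regulated secretory path, was at 0.19. Plat, the tissue plasminogen activator that starts the cleavage of BDNF precursor by plasmin, measured 13.8 FPKM in siYthdf3, against 17.1 FPKM in siNC, a log2 ratio of -0.30. The furin gene Furin measured 3.65 FPKM in siYthdf3, against 3.29 FPKM in siNC, with an interval of 0.948 to 1.30.

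The 41 signal transducers went both ways, with 9 intervals above 1, 12 below and a median of -0.04. Gab1, a docking protein that links receptors to PI3 kinase and SHP2, was the only one 1.5-fold apart, at 7.20 FPKM in siYthdf3, against 11.9 FPKM in siNC, with the ratio at 0.605 (interval 0.546 to 0.670). Irak1, a kinase of the p75 and interleukin-1 pathways, was at -0.54. Camk4, a nuclear calcium-dependent kinase that phosphorylates CREB, measured 34.6 FPKM in siYthdf3, against 23.1 FPKM in siNC, a log2 ratio of 0.57.

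Of the 18 transcription and response genes that passed, 12 intervals lay above 1 and 2 below, with a median of 0.26. Fosb measured 2.26 FPKM in siYthdf3, against 1.01 FPKM in siNC, a log2 ratio of 0.87. Npas4, a factor induced by calcium that acts on Bdnf promoters, was at 0.78 and the nuclear receptor gene Nr4a1 at 0.75. These are immediate early genes, and earlier results on the same libraries already had them higher, so their direction is no independent evidence. In the same libraries Vgf was lower at -0.48, with the limit from Ap1s1 given above. Bdnf was at 0.11, with an interval that includes 1. Neuronal markers had a median log2 ratio of 0.26, and how these values relate was not tested.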

How the data were processed

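RNA of 1 siYthdf3 and 1 siNC library of E18 rat cortical neurons was sequenced, per the labels' protocols, after a kit that tags cDNA molecules with random identifiers. The sources used here do not give the genome build, strand use or any collapsing of reads by identifier. Among the tools in the submitters' processing notes, which state no roles, are STAR 2.7.6a, StringTie 2.1.4, edgeR 3.40.2, featureCounts, fastp 0.23.2 and Subread 1.5.1. The authors deposited FPKM values per gene, per the file headers. Multiplied by length, 100% of values fell within 0.05 of a whole number of reads.

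Ratios of siYthdf3 over siNC, exact Clopper-Pearson 95% intervals, and log2 ratios with a pseudocount of 0.5 FPKM were computed in Python 3.11.15 with numpy 2.4.6, pandas 2.3.3 and scipy 1.17.1. Fits of the length trend used statsmodels 0.14.6 and plots matplotlib 3.10.9. Rows averaging 1 FPKM or more were compared. With 1 library per group, rules of size of 2-fold and 1.5-fold replace a test, and no count test was run. Intervals cover counting error only and understate the error if molecules were read repeatedly. Code was tested on simulated data. Symbols on several rows took the row with the highest mean.

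The members and lists were chosen with earlier results of these data known. Some genes that the rule below takes are not reported here. All members are named, and of each role list the genes 1.5-fold apart and the 3 with the largest differences. Others are given by level, or were named after their values were seen, as Sort1, Furin, Ncam1, Junb, Egr1, Ap1s1, Gtf2f1 and single cell type markers were. No genes are named by likeness of pattern, since 2 libraries give 1 ratio per gene. Lists of microglia, pericyte and fibroblast, endothelial and peripheral sensory neuron markers summed to 3.60, 153, 0.753 and 3.53 FPKM in siYthdf3, and to 7.55, 131, 0.991 and 3.34 FPKM in siNC. Acta2 alone carried the pericyte and fibroblast sum. Without it, a choice made after seeing the data, the sums were 6.32 FPKM in siYthdf3 and 10.2 FPKM in siNC, and the whole list had a median log2 ratio of -0.59, with 3 intervals below 1 and 1 above. Alternatives were other pseudocounts, filters, scalings, removal of a length trend and thinning to equal depth.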

Additional observations from a re-analysis of the deposited data

How the results depend on the processing

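No paired analysis was possible because each group had 1 library. Under the 9 alternatives, 0 members passed 1.5-fold in either direction among those each setting kept, 10 without a filter and 3 at a mean of at least 5 FPKM. Ret, whose mean is below the filter of 1 FPKM, was at 0.61 with a pseudocount of 0.1 FPKM, past 1.5-fold. Vgf ranged from -0.51 to -0.45 on the log2 scale. Ntrk2, at 0.06, was at -0.06 after the length trend was removed, the 1 member value outside its counting interval. Nrn1 and the members' median changed sign close to 0 under some settings, so no direction is given for them. The median of all genes moved by at most 0.05. Counts over all genes moved by more than 1.5 times with the filter, which changes how many low genes enter. At least 2-fold higher were 249 genes without a filter, 16 at a mean of at least 5 FPKM and 55 with a pseudocount of 1 FPKM, against 93. At least 2-fold lower were 231 without a filter and 51 at 5 FPKM, against 118. At least 1.5-fold higher were 807 and 86, against 317, and 1.5-fold lower 860 and 244, against 520. Depth limits Ret, Ngfr, Bdnf, Ntf3, Gfra1 and Gfra2, whose intervals span over 1.5-fold.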
